A study of Mus musculus with 6 samples.

Results

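Keratins are the intermediate filament proteins of epithelial cells, and 57 probe sets for 46 keratin genes were measured here, of 45037 probe sets in all that are not array controls, and of 18193 genes named by a probe set of their own. They are the probe sets whose single gene symbol is Krt followed directly by a number, with Krt8 and Krt19 left out and the Krtap genes of keratin-associated proteins not counted. This family, and the exception of Krt8 and Krt19, was chosen with the testosterone-against-vehicle values of these same 6 arrays known. Those differences are therefore given as a description, and nothing is supported with them.

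Each array carried RNA pooled from the whole brains of 6 neonatal C57BL/6 mice, hybridised to an Affymetrix expression array. On postnatal day 2, when the mouse brain differentiates by sex, pups were injected into the abdomen with testosterone propionate (TP, testosterone in esterified form) at 1 mg, dissolved in sesame oil (20 µL), or with the oil by itself (vehicle), and brains were collected on day 6. There were 2 arrays of TP-treated females, 1 labelled as TP-treated males, 2 of vehicle females and 1 of vehicle males. The labels name array 2 of each female group a replica and leave unsaid whether it came from other mice, so the spread between arrays may be technical.

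A keratin filament is built from a type I and a type II protein that pair with each other, and each epithelium uses its own pairs. Simple epithelia use Krt8 with Krt18, the dividing basal layer of skin uses Krt5 with Krt14, the layers above it use Krt1 with Krt10, and the hair follicle has sets of its own for the inner root sheath, which moulds the growing hair, and for the hair shaft itself. Neurons and glia build other intermediate filaments instead, so a keratin signal in whole-brain RNA is at the edge of what the tissue is known for. Most type I genes lie together on one chromosome and the type II genes on another, with Krt18, a type I gene, at the edge of the type II cluster. Of the 46 measured genes, 23 lie on chromosome 11 and 23 on chromosome 15.

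All values are log2 values made by the authors with RMA, and no detection call was used. Of the 57 probe sets, 39 had a mean over the 6 arrays below the 40th percentile of all probe sets, at 4.98, and are called dim; the sizes of differences in dim probe sets are uncertain because background makes up an unknown part of their values. The other 18, for 16 genes, had means of up to 8.70. Levels of different probe sets are not compared with each other. In 8 genes there were several probe sets, and in 4 of these (Krt13, Krt14, Krt17 and Krt6a) they gave TP differences of opposite sign. By Affymetrix naming, the 7 probe sets whose identifier ends in _x_at hold probes that can bind other transcripts, and near-identical hair keratins such as Krt33a and Krt33b or Krt81, Krt83 and Krt86 may share signal.

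Whole-array checks came out as follows. All 12 brain markers, such as the neuronal growth-cone gene Gap43, were above the 40th percentile. Array medians lay between 5.69 and 5.74. The Y-linked gene Eif2s3y stood at 9.12 on the array labelled male TP and 2.89 and 2.84 in TP females, against 9.16 in the vehicle male and 2.998 and 3.095 in vehicle females. Xist, which coats and silences one X in female cells, stood at 10.45 on the array labelled male TP and 12.81 and 12.83 in TP females, against 5.29 in the vehicle male and 12.71 and 12.61 in vehicle females. The array labelled male TP thus carried both a Y-linked and an X-inactivation signal, which goes against its label. The counts and median over the members and the sex differences are given with and without it, and female values do not use it. The summed linear level of 10 pituitary markers was 844 on that array, against 315 to 357 on the other 5.

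The inner root sheath keratins Krt25, Krt26, Krt27 and Krt28 of chromosome 11 are shown first by their promoters, because they lie next to each other among the measured keratins and include Krt25 and Krt27, the members with the widest differences between the female groups. The 100 bases before each annotated start follow, 5′ to 3′ on the gene's strand, from RefSeq on mouse build GRCm38.p6. Capitals mark TATAAA, the letters of the TATA box that places the start of transcription in many strongly used cell-type genes. The windows are chr11:99322952-99323051 for Krt25, chr11:99337966-99338065 for Krt26, chr11:99351119-99351218 for Krt27 and chr11:99374904-99375003 for Krt28, all on the minus strand.
Krt25: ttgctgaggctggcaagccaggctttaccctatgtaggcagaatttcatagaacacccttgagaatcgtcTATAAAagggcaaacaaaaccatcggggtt
Krt26: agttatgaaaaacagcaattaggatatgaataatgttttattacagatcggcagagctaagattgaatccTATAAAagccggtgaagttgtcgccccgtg
Krt27: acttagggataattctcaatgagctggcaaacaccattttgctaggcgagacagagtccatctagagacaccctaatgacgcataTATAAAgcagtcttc
Krt28: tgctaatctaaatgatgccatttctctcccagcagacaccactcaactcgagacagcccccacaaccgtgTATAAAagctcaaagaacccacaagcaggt

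In Krt25, Krt26 and Krt28 the capitals begin 30 bases before the start, and in Krt27 they begin 15 bases before it. Of the members, 31 genes matched the promoter table, with 32 promoters. Searched on both strands of the 250 bases before the start, TATAAA was present in 12 of 14 promoters of hair shaft and inner root sheath keratins and in 16 of the 32 member promoters, against 12.4% of 32851 promoters in the table. AGAACA, a half-site that androgen and glucocorticoid receptors can bind, was present in 6 of the 32 (18.8%), against 16.1% of all promoters, and among the 4 genes shown it was in Krt25. CTTTGAA, a core that the hair follicle factor Lef1 can bind, was in 4 of the 32 (12.5%), against 4.46% of all promoters. Those 4 are the hair shaft keratins Krt31, Krt32, Krt33b and Krt34, where it began 244, 247, 247 and 240 bases before the start, with another match at 133 in Krt34. A match of letters is a description of these windows, not a binding site.

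Of the 7 inner root sheath keratins, 4 (Krt25, Krt27, Krt28 and Krt73) had both TP females below both vehicle females, beside 21.3% of all probe sets. The widest female differences were in Krt25 and Krt27. Krt25, a type I keratin of all layers of the sheath, stood at 4.38 and 4.39 in TP females and 4.41 on the array labelled male TP, against 5.17 and 4.87 in vehicle females and 4.43 in the vehicle male. The vehicle females were thus high and the other 4 arrays lay close together, and the highest TP array, at 4.41, was just below the lowest vehicle array, at 4.43. In RNA of whole tissue, fewer cells of a type and less RNA per cell cannot be told apart. Female means were 4.38 ± 0.01 with TP and 5.02 ± 0.21 with vehicle (SD, n = 2 each), 1.55-fold lower with TP. Krt27, another type I sheath keratin, stood at 3.38 and 3.69 in TP females and 3.63 on the array labelled male TP, against 4.19 and 3.98 in vehicle females and 3.78 in the vehicle male. Again the vehicle females were highest and the groups did not overlap, and the female difference was -0.55 (3.54 ± 0.22 with TP and 4.08 ± 0.15 with vehicle, SD, n = 2 each). Krt25 and Krt27 are both dim.

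Krt28, also a type I sheath keratin, had 3.42 in both TP females and 3.75 on the array labelled male TP, against 3.88 and 3.65 in vehicle females and 3.64 in the vehicle male. Its female groups separated, while the array labelled male TP lay above the vehicle male. For Krt26 the TP arrays read 3.64 and 3.66 in females and 3.74 on the array labelled male TP, against 4.31 and 3.27 in vehicle females and 3.87 in the vehicle male. The 2 vehicle females differed by 1.04 log2 units in Krt26, the widest gap between them of any of the 45037 probe sets, and the TP arrays lay inside the vehicle range. Krt71, a type II keratin in which mutations give mice a wavy coat, is the sheath member that was not dim. It stood at 5.04 and 4.99 in TP females and 4.97 on the array labelled male TP, against 5.46 and 4.86 in vehicle females and 4.99 in the vehicle male. Only vehicle female array 1 stood apart in Krt71. The type II members Krt72 and Krt73 had female differences of 0.03 and -0.15.

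Across the 7 sheath keratins, all 7 were lower with TP between the original female arrays (median -0.47) and 4 of 7 between the replica arrays (median -0.13). Of all probe sets, 54.8% and 51.4% were lower in these comparisons. Vehicle female array 1 was the highest of the 6 arrays in 6 of the 7, beside 8514 of all 45037 probe sets. The 2 male-labelled arrays differed by a median of -0.01 (TP minus vehicle), with a range of -0.15 to 0.11.

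**Figure D1:**
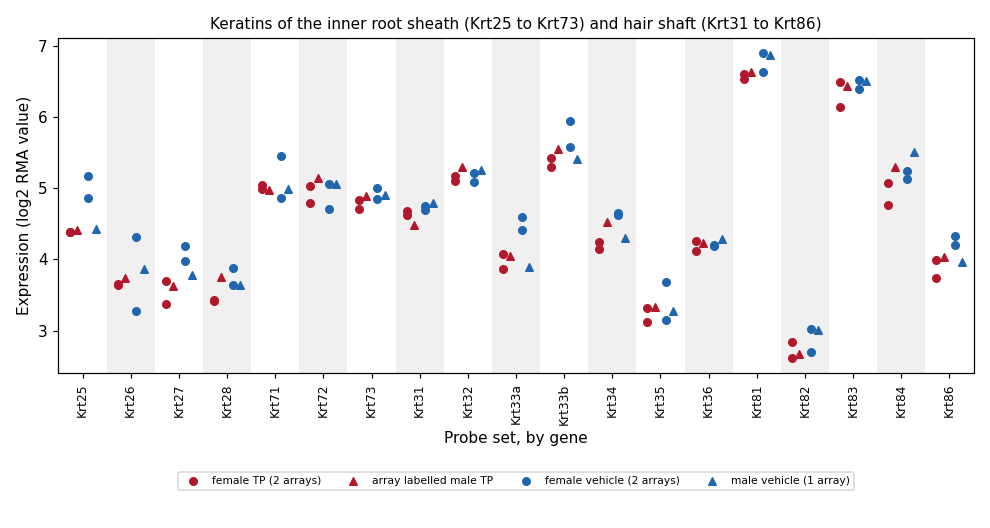
Expression (log2 RMA value) of each inner root sheath and hair shaft keratin probe set on the 6 arrays, TP arrays in red left of vehicle arrays in blue, circles for females and triangles for male-labelled arrays. In 11 of the 19 probe sets both TP females lie below both vehicle females, beside 21.3% of all probe sets. In these 11 the 2 triangles differ by at most 0.23, except in Krt31 (TP minus vehicle -0.30) and Krt81 (-0.24).

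Hair shaft keratins were lower with TP in females at 3 neighbouring type I genes. Krt33a, a keratin of the hair cortex, stood at 4.08 and 3.86 in TP females and 4.05 on the array labelled male TP, against 4.60 and 4.41 in vehicle females and 3.90 in the vehicle male. Krt34, a further cortex keratin, stood at 4.25 and 4.15 in TP females and 4.53 on the array labelled male TP, against 4.62 and 4.65 in vehicle females and 4.30 in the vehicle male. In both genes the female groups separated and the male-labelled arrays ran the other way. The female means were 3.97 ± 0.15 with TP and 4.51 ± 0.13 with vehicle for Krt33a, and 4.20 ± 0.07 with TP and 4.64 ± 0.02 with vehicle for Krt34 (SD, n = 2 each). Krt33b, which is not dim, stood at 5.30 and 5.42 in TP females and 5.55 on the array labelled male TP, against 5.94 and 5.57 in vehicle females and 5.41 in the vehicle male. Its 5.55 on the array labelled male TP lay above the vehicle male and just below vehicle female array 2.

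Among the type II keratins of the hair shaft, female differences ran from -0.40 in Krt86 to -0.13 in Krt83. Krt81, a cortex keratin, stood at 6.60 and 6.53 in TP females and 6.63 on the array labelled male TP, against 6.90 and 6.63 in vehicle females and 6.87 in the vehicle male. The groups touched without overlapping, at 6.6302 on the array labelled male TP and 6.6314 in vehicle female array 2. Krt83, its close relative, stood at 6.15 and 6.49 in TP females and 6.43 on the array labelled male TP, against 6.51 and 6.39 in vehicle females and 6.51 in the vehicle male, and the groups overlapped. Krt84, a keratin of the tongue's filiform papillae as well as of hard keratin tissue, stood at 5.07 and 4.76 in TP females and 5.30 on the array labelled male TP, against 5.24 and 5.13 in vehicle females and 5.51 in the vehicle male. Both TP females of Krt84 were below both vehicle females, but both male-labelled arrays were high, and the groups of 3 overlapped. Krt86 had a female difference of -0.40 (3.87 ± 0.18 with TP and 4.27 ± 0.09 with vehicle, SD, n = 2 each) and a male-labelled difference of 0.07.

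The remaining shaft keratins are Krt31, Krt32, Krt35, Krt36 and Krt82. Krt32, of the hair cuticle, stood at 5.10 and 5.16 in TP females and 5.29 on the array labelled male TP, against 5.21 and 5.09 in vehicle females and 5.26 in the vehicle male, an overlap throughout. Female differences were -0.06 for Krt31, -0.19 for Krt35, under 0.01 in size for Krt36 and -0.14 for Krt82. Of the 12 shaft probe sets, 12 were lower with TP between the original female arrays (median -0.25) and 9 between the replica arrays (median -0.13). Between the male-labelled arrays 6 were lower (median -0.01), with a range of -0.35 to 0.23. Over all probe sets the shares that were lower were 54.8%, 51.4% and 54.3%.

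Keratins of simple epithelium were led by Krt18, the type I partner of Krt8. Krt18 stood at 5.48 and 5.65 in TP females and 5.43 on the array labelled male TP, against 5.71 and 5.95 in vehicle females and 5.79 in the vehicle male. All 3 TP arrays lay below all 3 vehicle arrays, and the difference over both sexes was -0.30. The brightest probe set of its partner Krt8 stood at 5.88 and 5.81 in TP females and 5.62 on the array labelled male TP, against 5.77 and 5.85 in vehicle females and 5.64 in the vehicle male, which overlap, while another of its 3 probe sets had all TP arrays lower (-0.07). Krt19, the other keratin left out, stood at 5.38 and 5.30 in TP females and 5.37 on the array labelled male TP, against 5.65 and 5.36 in vehicle females and 5.43 in the vehicle male, and overlapped as well. Krt7, a keratin of ducts and glands, was higher in TP females (3.48 ± 0.14) than in vehicle females (3.26 ± 0.16, SD, n = 2 each), and Krt20, of the gut lining, had a female difference of -0.02.

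In the epidermal keratins the differences were small. Krt5, of the basal layer, stood at 5.07 and 5.13 in TP females and 5.17 on the array labelled male TP, against 5.21 and 5.23 in vehicle females and 5.22 in the vehicle male, without overlap and within 0.17 of each other. Its partner Krt14 had 3 probe sets, with differences over both sexes of -0.19, -0.17 and 0.11, and Krt15, also of the basal layer, had -0.08. Krt1, the type II keratin of the layers above, stood at 7.92 and 7.85 in TP females and 7.89 on the array labelled male TP, against 8.10 and 8.02 in vehicle females and 8.01 in the vehicle male. The 3 TP arrays of Krt1 were all lower, with a female difference of -0.18. Its type I partner Krt10 overlapped between the groups. Krt10 stood at 8.69 and 8.76 in TP females and 8.70 on the array labelled male TP, against 8.60 and 8.89 in vehicle females and 8.55 in the vehicle male. Krt77, a later type II keratin of the epidermis, stood at 5.77 and 5.69 in TP females and 5.91 on the array labelled male TP, against 5.66 and 5.77 in vehicle females and 5.88 in the vehicle male. Both overlapped. Krt2, of the upper epidermis, had a female difference of -0.16 with vehicle females 0.31 apart.

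Keratins that skin makes in wounds and in its appendages overlapped between the groups, with 1 exception among 8 probe sets, the dim Krt17 probe set with a difference of -0.09. The brightest Krt6a probe set stood at 5.89 and 5.60 in TP females and 6.11 on the array labelled male TP, against 5.98 and 5.80 in vehicle females and 6.19 in the vehicle male. Its female difference was -0.15, and the male-labelled arrays differed by -0.08. Differences over both sexes were -0.12 for Krt16, the partner of Krt6a, 0.08 for Krt6b and -0.03 for Krt75, of the companion layer of the hair follicle.

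Among keratins of wet epithelia and the cornea, Krt12 was the bright one. This type I keratin is known from the corneal epithelium. Its first probe set stood at 6.78 and 6.77 in TP females and 6.62 on the array labelled male TP, against 6.93 and 6.92 in vehicle females and 6.87 in the vehicle male. The replicates agree to within 0.02 in each female group, and the difference was -0.15 in females and -0.26 between the male-labelled arrays. The other probe set stood at 7.26 and 6.91 in TP females and 7.07 on the array labelled male TP, against 7.33 and 7.28 in vehicle females and 7.17 in the vehicle male. That one overlapped because TP female array 1 lay above the vehicle male. The mucosal keratins Krt4, Krt13 and Krt76 had 6 dim probe sets with differences over both sexes from -0.12 to 0.15. Of these, the Krt13 probe set at -0.12 alone had no overlap between the groups.

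The remaining members have less settled roles. Krt222, a keratin-like gene, had 2 probe sets that were not dim. The first stood at 6.890 and 7.003 in TP females and 6.81 on the array labelled male TP, against 6.94 and 6.99 in vehicle females and 6.75 in the vehicle male. The other stood at 5.63 and 5.61 in TP females and 5.53 on the array labelled male TP, against 5.55 and 5.47 in vehicle females and 5.44 in the vehicle male. TP and vehicle overlapped in both, and the other probe set had a female difference of 0.11. Krt42 had its highest value on the array labelled male TP, with 8.21 and 8.35 in TP females and 8.52 on that array, against 7.97 and 8.31 in vehicle females and 8.14 in the vehicle male, from a probe set ending in _x_at. Krt78 stood at 5.92 and 5.76 in TP females and 5.93 on the array labelled male TP, against 6.20 and 5.79 in vehicle females and 6.28 in the vehicle male. Vehicle female array 2 lay low in Krt78, among the TP arrays. Krt79, known from sebaceous glands and the hair canal, stood at 3.78 in both TP females and 3.70 on the array labelled male TP, against 4.16 and 3.89 in vehicle females and 4.14 in the vehicle male, and the groups did not overlap. Krt23, Krt24, Krt80 and Krt88 had female differences of -0.26, -0.37, -0.08 and -0.15.

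**Figure D2:**
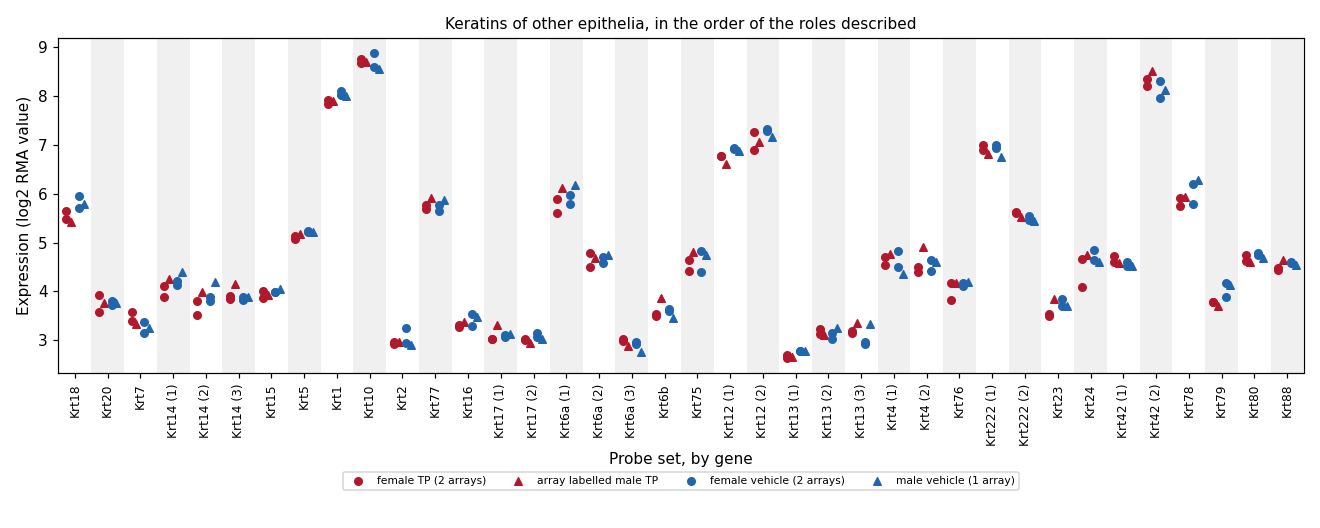
Expression (log2 RMA value) of the 38 other keratin probe sets on the 6 arrays, in the same colours and symbols, with a number after genes that have several probe sets. In 7 of the 38 all 3 TP arrays lie below all 3 vehicle arrays, beside 8.35% of all probe sets. They are Krt18, Krt5, Krt1, Krt79, the first probe sets of Krt12 and Krt13 and the second of Krt17. The others overlap, among them Krt10, Krt77 and Krt222.

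Over all members, 41 of 57 probe sets (71.9%) had a lower mean with TP in the model of sex and treatment, with a median difference of -0.10, beside 55.8% and -0.02 over all probe sets. With all 3 TP arrays below all 3 vehicle arrays there were 11 members, where 8.35% of all probe sets lay in that order, and with all 3 above there were 0, where 6.83% of all probe sets did. Because the family was picked on this contrast, nothing is read from these counts. None of the 57 passed limma's test over 6 arrays, at which 0.00888% of all probe sets passed (8 members and 5520 of all probe sets had an unadjusted p under 0.05). On the 4 female arrays alone 0 members passed as well, beside 0.0111% of all probe sets (9 members and 3663 of all probe sets had an unadjusted p under 0.05). Without the array labelled male TP, 19 members were lower and 3 higher with no overlap, beside 14.6% and 12.1% of all probe sets, and the median was -0.13. The median was -0.06 without TP female array 2 and -0.07 without vehicle female array 1. In females alone 24 members were lower with no overlap and 4 higher, beside 21.3% and 17.1% of all probe sets.

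The labels do not tie a TP array to a given vehicle array, and same-numbered female arrays are set against each other only to show the spread. In this way, the hair keratins and the other keratins are given side by side, with no test between them. For the 19 hair shaft and sheath members the median was -0.36 between the original female arrays, -0.13 between the replica arrays and -0.01 between the male-labelled arrays. For the 38 others it was -0.05 between the original female arrays, -0.12 between the replica arrays and -0.00 between the male-labelled arrays. The hair group's larger gap thus lay between the original arrays. Vehicle female array 1 exceeded vehicle female array 2 by a median of 0.19 in the hair group and by -0.02 in the others. It was the highest of the 6 arrays in 11 of the 19 hair members and in 8 of the 38 others, beside 8514 of all 45037 probe sets.

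**Figure D3:**
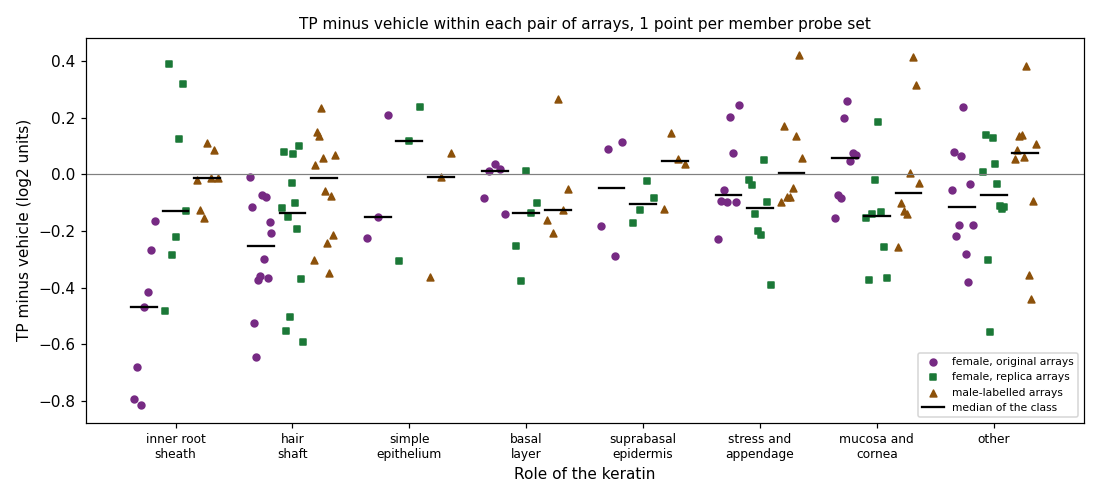
TP minus vehicle (log2 units) of each member probe set within the original female arrays, the replica female arrays and the male-labelled arrays, grouped by the role of the keratin, with the median of each class as a black line. In the inner root sheath and hair shaft classes all points of the original female arrays lie below 0, beside 54.8% of all probe sets. In these classes the male-labelled medians lie at -0.01, with points from -0.35 to 0.23.

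Along chromosome 11, some of the lowest female differences were in neighbouring genes. In gene order, Krt24, Krt25, Krt26, Krt27 and Krt28 had female differences of -0.37, -0.64, -0.15, -0.55 and -0.34, and the next measured keratin, Krt10, had -0.02. The female groups overlapped in Krt24, whose TP females were 0.58 apart, and in Krt26, whose vehicle females were 1.04 apart. Further on, Krt33a, Krt33b and Krt34 had -0.54, -0.40 and -0.44, followed by Krt31 and Krt32 with -0.06 and -0.02. On chromosome 15 the lowest were Krt86 (-0.40), Krt84 (-0.27) and Krt18 (-0.27), which do not lie next to each other. Around and between Krt86 and Krt84, the genes Krt88, Krt81, Krt83 and Krt82 had -0.15, -0.20, -0.13 and -0.14. Next outward, Krt7 and Krt75 had 0.22 and -0.07. In the male-labelled arrays, which go against the label in 1 of 2, signs were mixed: in the same genes from Krt24 to Krt28 their differences were 0.14, -0.02, -0.13, -0.15 and 0.11.

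**Figure D4:**
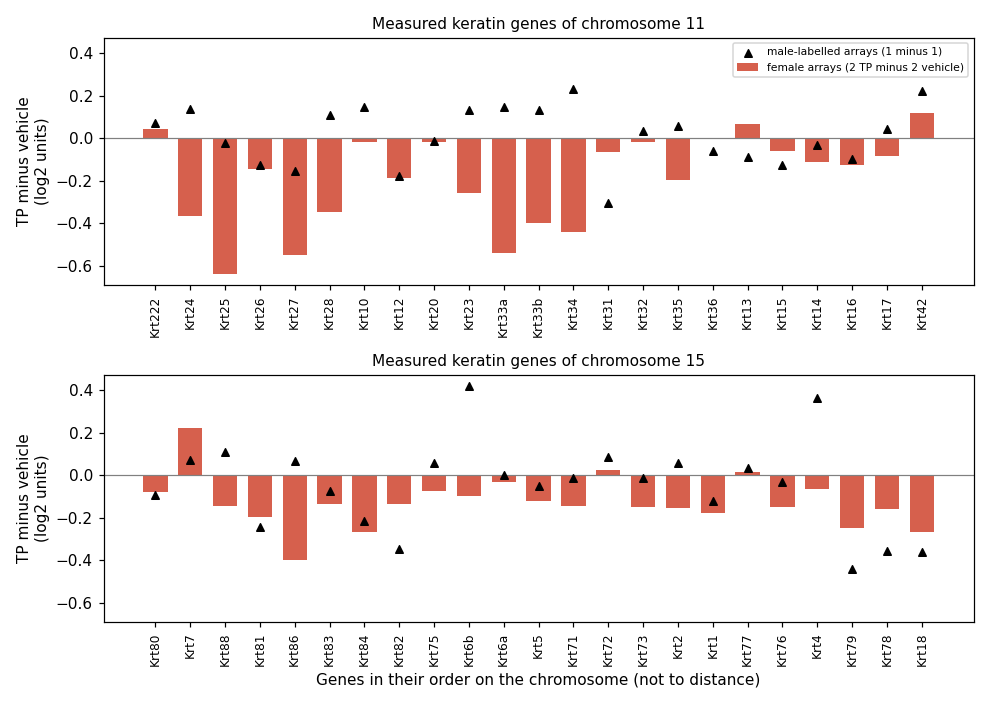
TP minus vehicle (log2 units) of the measured keratin genes in chromosomal order, with bars for the female arrays (2 minus 2) and triangles for the male-labelled arrays (1 minus 1), averaged over the probe sets of a gene. The lowest bars are Krt25 and Krt27, a group of 3 at Krt33a, Krt33b and Krt34, and Krt86 on chromosome 15.

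Genes that work with keratins, or mark the tissues that make them, were read from 10 lists, each gene by its brightest probe set. Over the 6 arrays 0 of their 132 measured genes passed limma's test, beside 0.00888% of all probe sets, and 19 of them (14.4%) had an unadjusted p under 0.05, beside 12.3% of all probe sets. The hair shaft is made of keratins embedded in keratin-associated proteins, and for the 43 Krtap probe sets the median difference over both sexes was -0.19, with 36 lower, 9 of them without overlap and 0 higher without overlap. Beside this and the counts that follow, 55.8% of all probe sets were lower, 8.35% lower without overlap and 6.83% higher without overlap. Krtap19-5, at 2.66 in both TP females and 2.61 on the array labelled male TP, against 3.85 and 3.88 in vehicle females and 3.28 in the vehicle male, passed limma's test on the 4 female arrays (-1.21, adjusted p = 0.0482) and was the one probe set on the array that passed as lower there. On the 4 female arrays 0.0111% of all probe sets passed. Krtap19-5 is dim, as are 38 of the 43 Krtap probe sets, so the size of its difference is uncertain. Over all 43, medians were -0.31 for the original female arrays, -0.23 for the replica arrays and 0.01 for the male-labelled arrays. Of 15 hair follicle genes that are neither, 12 were lower (median -0.05), 4 of them without overlap. Prr9, a proline-rich hair protein, stood at 3.54 and 3.46 in TP females and 3.28 on the array labelled male TP, against 4.58 and 4.25 in vehicle females and 3.58 in the vehicle male. Tchh, trichohyalin of the inner root sheath, stood at 3.87 and 3.84 in TP females and 3.64 on the array labelled male TP, against 4.11 and 4.27 in vehicle females and 3.96 in the vehicle male. Prr9 and Tchh are both dim. The summed linear level of the 15 genes was 641 to 684 on TP arrays, against 704 to 725 on vehicle arrays, and these do not overlap. This sum mostly follows its brightest genes, such as Lef1 and Shh (means of 7.38 and 7.24). Prr9 and Tchh (means of 3.78 and 3.95) add little to it. The part of hair or skin tissue in the keratin values was not tested.

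Skin markers other than keratins gave a mixed picture. Of 21 epidermal genes, 18 were lower (median -0.08), 2 without overlap and 1 higher without overlap, and their summed level was 1545 to 1611 on TP arrays, against 1586 to 1715 on vehicle arrays, which overlap. Casp14, a protease of cornifying skin cells, was the higher one, at 6.32 and 6.38 in TP females and 6.36 on the array labelled male TP, against 6.04 and 6.16 in vehicle females and 6.16 in the vehicle male. Flg, which bundles keratin filaments, differed by -0.17. Desmosomes anchor keratin filaments at cell contacts. In a list of desmosome genes and plakin linker genes such as Plec and Dst, 11 of 16 were lower (median -0.07), of which Ppl (-0.07) alone did not overlap. For 12 simple epithelium genes the median was 0.02, and Epcam, an adhesion molecule of epithelia, differed by 0.11 without overlap. Of 15 genes for other intermediate filaments, 10 were lower (median -0.09), and among the 3 that were lower without overlap the widest differences were in Des of muscle (-0.27) and Nefh of neurons (-0.22). Meninges, which cover the brain, gave a median of -0.07 with 10 of 12 lower (Col3a1 -0.18, Aldh1a2 -0.16), and the choroid plexus and ependyma, which line its ventricles, -0.08 with 9 of 11 lower. Medians were 0.05 for 10 pituitary genes and 0.01 for 12 brain genes, of which Syt1, a synaptic vesicle protein, differed by -0.08 without overlap. Without the male-labelled arrays, the female medians were -0.27 for Krtap, -0.08 for hair follicle genes, -0.09 for epidermal genes and -0.05 for desmosome and plakin genes. They were 0.02 for simple epithelium, -0.07 for other intermediate filaments, -0.03 for meninges and -0.06 for the choroid plexus. The pituitary median turned to -0.05 in females and the brain median was 0.03. On the array labelled male TP, the pituitary hormone genes Gh and Pomc were 2.84 and 1.40 above the vehicle male.

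Of 8 bone genes, 6 were higher in TP females without overlap, beside 17.1% of all probe sets. Sp7 and Alpl differed by -0.21 and -0.16. The female median was 0.80, and Ibsp, a bone matrix protein, passed limma's test on the 4 female arrays, beside 0.0111% of all probe sets. Their summed level was 490 and 491 in TP females and 303 on the array labelled male TP, against 335 and 338 in vehicle females and 359 in the vehicle male. The part of such neighbouring tissue in the keratin values was not tested.

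The contrast between the sexes was not used to choose the family, and it was tested for every probe set in an additive model over the 6 arrays. None of the 57 keratin probe sets passed, beside 0.0222% of all probe sets (10 of 45037), while 9 members and 5440 of all probe sets had an unadjusted p under 0.05. The 4 members with the smallest p were all higher in males without passing. Other probe sets of the same genes had male minus female differences of -0.01 and 0.05 for Krt13. Those of Krt14 had 0.24 and 0.15, and those of Krt6a 0.07 and -0.15. Krt13, at its second _x_at probe set, stood at 3.34 on the array labelled male TP and 3.34 in the vehicle male, against 3.18 and 3.14 in TP females and 2.92 and 2.95 in vehicle females. Both male-labelled arrays lay above all females, by a fitted 0.29 (SE 0.08, limma adjusted p = 0.314). Krt84, given above, differed by 0.36 (SE 0.10, adjusted p = 0.316 by limma), with both male-labelled arrays again above the 4 female arrays. Krt14, at the probe set with a TP difference of -0.19, stood at 3.98 on the array labelled male TP and 4.19 in the vehicle male, against 3.80 and 3.51 in TP females and 3.79 and 3.89 in vehicle females. That is a difference of 0.33 (SE 0.09, limma adjusted p = 0.321), and the brightest Krt6a probe set had 0.33 (SE 0.10, limma adjusted p = 0.325). Without the array labelled male TP the 4 differences were 0.40, 0.33, 0.34 and 0.30, and 0 members passed (smallest limma adjusted p = 0.504, in a range of 0.210 to 0.529 over the alternatives).

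**Figure D5:**
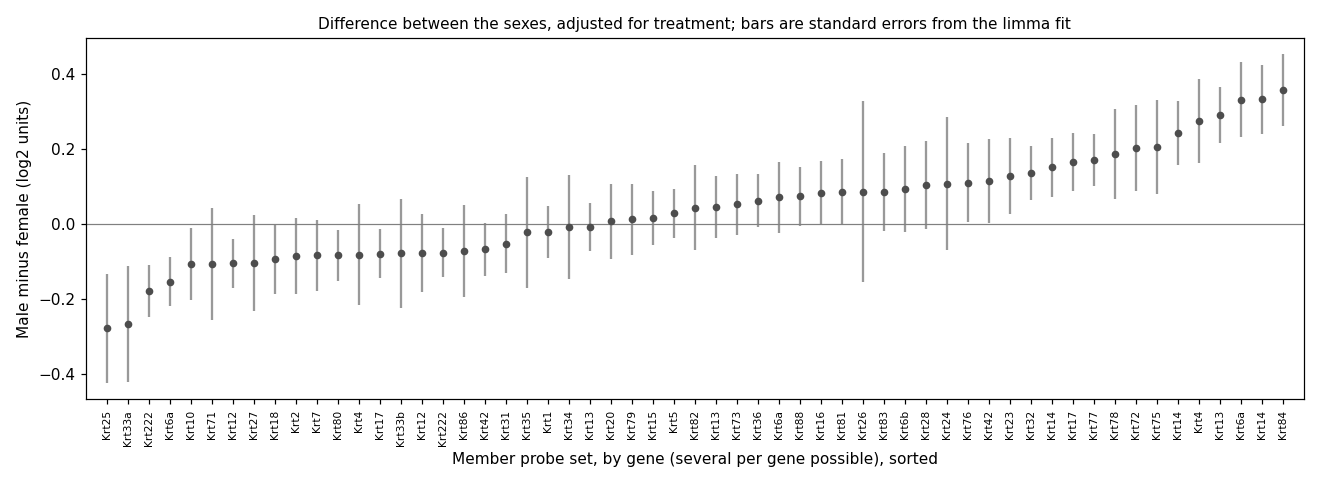
Male minus female difference (log2 units, adjusted for treatment) of all 57 keratin probe sets, sorted, with the standard error of the limma fit as bars. The points run from -0.28 for Krt25 to 0.36 for Krt84, and none passed the threshold.

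Whether the TP effect differed between the sexes was tested as a contrast over the 4 groups, in which the single male-labelled arrays were assumed to vary like the females and of which 1 goes against its label. No keratin probe set passed, beside 0.0155% of all probe sets (7 of 45037), with 7 members and 2222 of all probe sets at an unadjusted p under 0.05. The members with the smallest p were Krt34, Krt6b, Krt33a and Krt25. Their female minus male TP effects were -0.67 (SE 0.14), -0.52 (SE 0.14), -0.69 (SE 0.19) and -0.62 (SE 0.20), each with a limma adjusted p of 1.00. Krt6b, a stress-induced type II keratin, stood at 3.49 and 3.53 in TP females and 3.87 on the array labelled male TP, against 3.59 and 3.63 in vehicle females and 3.44 in the vehicle male. Its TP effect was -0.10 in females and 0.42 between the male-labelled arrays.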

How the data were processed

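Whole-brain RNA, pooled from 6 mice per array, was measured on 6 Affymetrix arrays. The deposited log2 values were made by the authors with RMA, per the submitters' processing notes, a method that subtracts background, equalizes the arrays and merges the probes of a set. The RMA version was not given in the sources used here. Precision is limited by the number of arrays. Of 45101 probe sets, 64 controls were left out. Probe sets were named through the platform's annotation table, 34945 of them with 1 gene; 1 probe set that names Krt17 and Krt14 together is no member. All 57 member gene identifiers matched RefSeq, which also gave gene order. No pair of arrays shared equal values in more than 215 probe sets, so no array was counted as a duplicate.

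Differences were fitted with limma 3.58.1 in R 4.3.3 (lmFit, eBayes, two-sided, Benjamini-Hochberg over 45037 probe sets, threshold 0.05). The fit was tested on simulated data. Sex and treatment were fitted additively, and the difference of TP effects over 4 groups. Tables and figures used Python 3.11.15, pandas 2.3.3 and matplotlib 3.10.9. Values on every array are given for members that are not dim, for the 6 lowest and 6 highest TP differences without overlap (0 were higher) and for the 4 members with the smallest p in the sex comparison and in the comparison of TP effects; other array values were chosen after they were seen. Members, gene lists (142 entries, 132 measured) and rules were chosen with earlier results of these data known. Alternatives were the probe set per gene, leaving out dim probe sets, quantile normalization again, an intensity trend, a replicate block, the female arrays alone, and leaving out single arrays.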

Additional observations from a re-analysis of the deposited data

How the results depend on the processing

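No keratin probe set passed in the sex comparison or in the comparison of TP effects under any alternative run, with smallest limma adjusted p of 0.210 for sex and 0.675 for TP effects. The replicate block (original or replica array, male arrays with the originals) gave 0 members for sex (smallest limma adjusted p = 0.529) and for TP effects (0.886). It left the median TP difference at -0.10, which it could not change, because each block holds as many TP as vehicle arrays of each sex. Original minus replica differences of TP and vehicle females correlated at 0.11 over probe sets, which does not show that the replicas are paired. The median TP difference ran from -0.13 in females alone to -0.06 without TP female array 2, and was -0.07 without vehicle female array 1. Members lower with TP without overlap numbered 11 and members higher 0, beside 8.35% and 6.83% of all probe sets. Without the array labelled male TP they numbered 19 and 3, beside 14.6% and 12.1%. On the female arrays alone they numbered 24 and 4, beside 21.3% and 17.1%. When a single female array was left out, 12 to 16 were lower, beside 12.1% to 17.2% of all probe sets. In those settings 1 to 4 were higher, beside 10.1% to 14%. These 2 counts and their alternatives were chosen after the data were seen, and groups with fewer arrays separate more often. Of 56 recomputed TP differences of the 6 members named for them, 49 moved by less than the replicate SD and 7 by more. All stayed between -0.64 and -0.14. Some of the 56 could not move: the probe set per gene, leaving out dim probe sets and the replicate block leave a probe set's fitted TP difference as it is. Leaving out the array labelled male TP and using the female arrays alone give the same difference. The 6 were named for low differences, so nothing is read from these counts.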
